A study of Homo sapiens with 6 samples.

Results

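IL6, IL11, LIF, CXCL8, CXCL1, CXCL2, CXCL3, CSF2, IL1A and IL1B encode secreted cytokines and CXC chemokines that tumour cells are known to release. They were taken by symbol from the deposited table, where each of the 10 names occurs once among 58051 genes. Transcript levels were measured in the established breast cancer line MDA-MB-231, which the labels give as wild type. Cells had been stained with recombinant human FABP4, a fatty acid carrier, coupled to the fluorophore FITC, and sorted by flow cytometry. FABP4 binding cells gave 3 libraries and FABP4 non-binding cells gave 3, all from the same stained and sorted line, with no unstained or unsorted group used here. Levels are TPM, a share of all transcripts corrected for gene length, so they can be compared between genes. The sequencing depth is unknown because TPM keep no depth, and no secreted protein was measured. Nothing in the labels tells whether a group's 3 libraries came from different cultures or sorting runs. The p-values therefore set the difference between groups against the variation among these libraries, which may be only technical.

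IL6, IL11 and LIF belong to the family of cytokines that signal through the shared receptor chain gp130, the product of IL6ST. CXCL1, CXCL2, CXCL3 and CXCL8 are chemokines with the ELR sequence that attract neutrophils through CXCR1 and CXCR2. CSF2 encodes the growth factor GM-CSF, and IL1A and IL1B encode the alarm cytokines at the head of the interleukin 1 pathway. In inflamed tissue many of these genes are switched on by NF-kB and AP-1 factors, and their short-lived mRNAs carry AU-rich elements in the 3' untranslated region.

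Promoter stretches of the 4 chemokine genes, IL6 and IL11 are shown, each of which holds a motif marked below. Those of CSF2 and IL1B, not shown, hold none of these motifs. The stretches run from 150 to 31 bases before the RefSeq start site (RefSeq, GRCh38), with the letters GGANTTTCC, a kappa B-type motif, and TGANTCA, an AP-1-type motif, in capitals.
CXCL8 (chr4:73740419-73740538, plus strand): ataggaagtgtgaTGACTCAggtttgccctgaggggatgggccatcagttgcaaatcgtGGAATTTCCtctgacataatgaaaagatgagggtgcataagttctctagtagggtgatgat
CXCL1 (chr4:73869243-73869362, plus strand): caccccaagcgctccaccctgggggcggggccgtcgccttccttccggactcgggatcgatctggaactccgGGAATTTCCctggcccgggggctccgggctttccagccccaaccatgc
CXCL2 (chr4:74099226-74099345, minus strand): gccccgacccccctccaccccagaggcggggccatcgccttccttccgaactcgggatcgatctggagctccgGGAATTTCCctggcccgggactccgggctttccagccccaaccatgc
CXCL3 (chr4:74038720-74038839, minus strand): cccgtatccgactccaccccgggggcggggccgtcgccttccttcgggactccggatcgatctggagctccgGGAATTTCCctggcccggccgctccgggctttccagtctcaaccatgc
IL6 (chr7:22727050-22727169, plus strand): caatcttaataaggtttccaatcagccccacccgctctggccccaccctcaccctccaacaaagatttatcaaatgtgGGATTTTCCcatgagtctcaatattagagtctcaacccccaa
IL11 (chr19:55370494-55370613, minus strand): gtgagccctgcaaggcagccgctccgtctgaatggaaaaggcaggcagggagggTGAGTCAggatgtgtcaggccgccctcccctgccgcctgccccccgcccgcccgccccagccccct

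RefSeq promoters of 300 bases were at hand for 9 of the 10 members, all but LIF. GGANTTTCC, searched on both strands, occurred in 5 of these 9 (CXCL8, CXCL1, CXCL2, CXCL3 and IL6) and in 1.64% of all 35116 promoters in the table. In CXCL1, CXCL2, CXCL3 and CXCL8 the letters were the same GGAATTTCC, beginning 78, 77, 78 and 91 bases before the start site. TGANTCA occurred in 3 of the 9 (IL11, CXCL8 and IL1A) and in 7.71% of all promoters. The motifs do not overlap each other in the stretches printed. The promoters of CXCL1 and CXCL3 were 82.5% identical in a global alignment, and CXCL8 was 43.1% identical to CXCL1. A match describes letters in this window and does not show binding.

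All 10 transcripts carry the pentamer ATTTA in the 3' untranslated region of their longest coding transcript (GENCODE release 29), as do 68.3% of 18619 protein-coding genes. The longer TATTTAT was in all 10 too, against 31.6% of those genes. CSF2 was the densest with 25.2 ATTTA per kb, against a median of 1.53 per kb over all genes. LIF was the sparsest member at 2.18 per kb. For CSF2, CXCL2, CXCL8 and IL11, the 24 bases that hold the most copies are shown, to let the elements be compared, with each ATTTA in capitals.
CSF2: aatATTTATTTATTTATTTATTTA
CXCL2: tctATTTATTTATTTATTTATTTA
CXCL8: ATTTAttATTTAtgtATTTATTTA
IL11: agccagatcttATTTATTTATTTA

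Defining markers of the line were present beside markers of skin cells. VIM and CD44, high in MDA-MB-231, lay between 821 and 981 TPM and between 31.2 and 56.0 TPM. The list of defining markers held 6 genes. By limma, 3 of them (CD44, CAV1 and AXL) were higher in binding libraries and 0 were lower (Benjamini-Hochberg adjusted p under 0.05). Over all tested genes, 19.6% were higher and 7.12% lower. Of 5 genes taken as low or absent in MDA-MB-231, ESR1 was at 0 in all 6 libraries and PGR under 1 TPM. The others were present in every library: GATA3 at 9.90 to 16.9, ERBB2 at 9.75 to 14.7 and EPCAM at 4.44 to 8.27 TPM. Of 13 keratinocyte markers, 11 were lower in binding libraries by limma (Benjamini-Hochberg adjusted p under 0.05), against 7.12% of all tested genes. None of the 13 was at 0 in all libraries. Their summed level was 4079 to 5524 TPM in non-binding and 1886 to 2899 TPM in binding libraries. KRT10, an epidermal keratin, ranged from 969 to 1337 TPM in non-binding libraries. Leukocyte markers, a list of 12 that includes HBB of red blood cells, summed to 40.6 to 94.3 TPM in non-binding libraries. In binding libraries they summed to 28.3 to 56.0 TPM. Of the 12, only the B-cell marker MS4A1 was at 0 in all, while LYZ was at 13.8 to 25.3 and CSF1R at 6.17 to 26.2 TPM. In such bulk samples fewer cells of a type and less RNA per cell cannot be told apart. Over all tested genes, binding replicate 1 and non-binding replicate 2 had the lowest mean correlation with the other libraries of their group (0.952 and 0.953, against 0.955 to 0.961 for the other 4). A library of each group must be the lowest, and in the non-binding group the gap was small (0.953 against 0.955 and 0.957). Binding replicate 1 and non-binding replicate 2 stood apart in most members.

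Only CXCL8 differed between the groups by the test used. Of the 10 members, 9 reached 1 TPM in at least 3 libraries and were tested with limma on log2(TPM + 1). CXCL8 was higher in binding cells and the other 8 did not pass (Benjamini-Hochberg adjusted p under 0.05 over 15574 genes). The same test called 19.6% of all tested genes higher and 7.12% lower, so 1 of 9 higher is not above the background. None of the 9 was lower after adjustment by limma, and 1, IL1B, had an unadjusted p under 0.05 in that direction. The groups did not overlap for 2 of the 9, CXCL8 and IL1B, against 52.2% of all tested genes. The median log2 change of the 9 was 0.57, and that of all tested genes was 0.36.

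**Figure D1:**
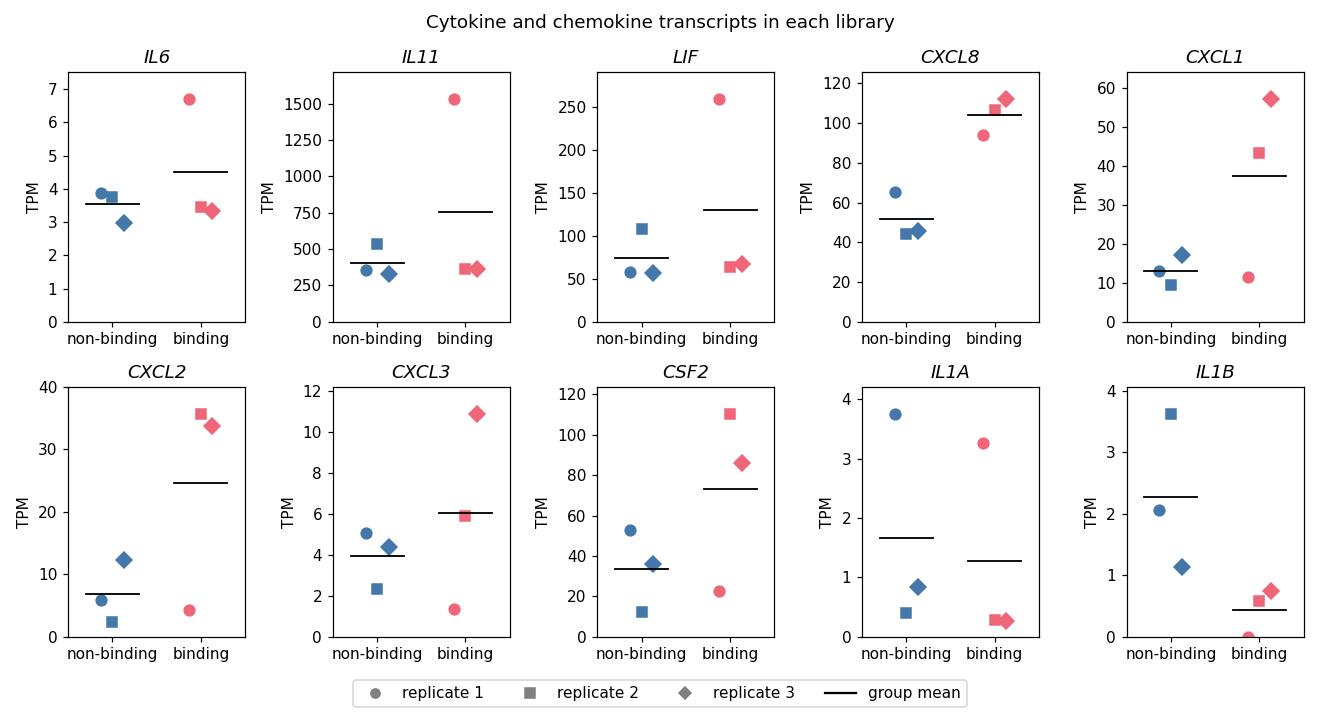
TPM (vertical axes, from 0) of each member in the 3 non-binding (blue) and 3 binding (red) libraries. Marker shapes give the replicate number and lines the group means. CXCL8 and IL1B are the members whose groups do not overlap, and in IL11 and LIF binding replicate 1 lies far above the other libraries.

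CXCL8 (ENSG00000169429, chromosome 4, 73740506 to 73743716, hg38) encodes interleukin 8. Its levels were 65.4, 44.1 and 45.8 TPM in non-binding replicates 1, 2 and 3, and 93.8, 106 and 112 TPM in binding replicates 1, 2 and 3. Every binding library lay above every non-binding library. Binding libraries averaged 104 ± 9.43 TPM against 51.8 ± 11.8 TPM (SD, n = 3 each), a ratio of 2.01. On the log2(TPM + 1) scale the gene rose by 1.01 with an SE of 0.18 (Benjamini-Hochberg adjusted p = 0.0146 by limma), which is 0.66 more than the median gene. CXCL8 missed the threshold narrowly when non-binding replicate 2 was left out (log2 change 0.91, adjusted p = 0.0563 by limma) and without non-binding replicate 3 (log2 change 0.94, adjusted p = 0.0565). It was kept in the other 12 alternatives, and adjusted p ranged from 0.00737 to 0.0565 over all 14.

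CXCL1 (chr4:73869393-73871242, hg38), CXCL3 (chr4:74036589-74038807) and CXCL2 (chr4:74097035-74099293) lie in the chemokine cluster of chromosome 4. Their coding sequences are 90.7% to 94.4% identical, against 51.7% to 54.2% with CXCL8. Of the 50-base stretches of the CXCL1 transcript, 5.73% also occur in CXCL2 and 0.573% in CXCL3, so reads from these stretches could have been divided among the genes. How the submitters treated such reads is not given in the sources used here.

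CXCL1 stood at 12.9, 9.33 and 17.03 TPM in non-binding replicates 1, 2 and 3, and at 11.5, 43.2 and 57.3 TPM in binding replicates 1, 2 and 3. Binding replicates 2 and 3 were above all non-binding libraries, while binding replicate 1 was within their range. The log2 change was 1.21 (SE 0.53; limma, Benjamini-Hochberg adjusted p = 0.112). Without binding replicate 1 it was 1.88 and passed (adjusted p = 0.0111 by limma), the only one of 14 alternatives in which CXCL1 did.

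CXCL2 had the same shape, at 5.86, 2.30 and 12.4 TPM in the non-binding libraries and 4.301, 35.7 and 33.7 TPM in the binding libraries, in replicate order. Binding replicate 1 again fell within the non-binding range. The log2 change was 1.49 (SE 0.78; limma, Benjamini-Hochberg adjusted p = 0.171), and it was 2.41 without binding replicate 1 (adjusted p = 0.0317 by limma). CXCL3, the lowest of the chemokines, was at 5.04, 2.34 and 4.38 TPM in non-binding and 1.34, 5.91 and 10.9 TPM in binding libraries. Binding replicates 2 and 3 were above all non-binding libraries, and binding replicate 1 was below them all. The groups of CXCL3 thus overlapped, with the highest and the lowest value both in binding cells. The log2 change of CXCL3 was 0.28 (SE 0.56; limma, Benjamini-Hochberg adjusted p = 0.717). It turned to -0.04 when all libraries were shifted to the same (common) median and to -0.25 without binding replicate 3. When the levels of CXCL1, CXCL2 and CXCL3 were summed before the log, so that reads divided among them matter less, the log2 change was 1.21 (SE 0.62; limma, Benjamini-Hochberg adjusted p = 0.166). Any shared reads that were left out, or given to other genes, would still be missing from this sum.

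CSF2 (ENSG00000164400, chr5:132073790-132076170, hg38) stood at 52.8, 12.1 and 35.9 TPM in the non-binding libraries and 22.7, 111 and 86.2 TPM in the binding libraries, in replicate order. As in CXCL1, CXCL2 and CXCL3, binding replicates 2 and 3 were the highest of the 6 and binding replicate 1 was not. The log2 change was 1.05 (SE 0.66; limma, Benjamini-Hochberg adjusted p = 0.245). It passed in none of 14 alternatives, and it was 1.74 without binding replicate 1 (adjusted p = 0.0773 by limma).

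**Figure D2:**
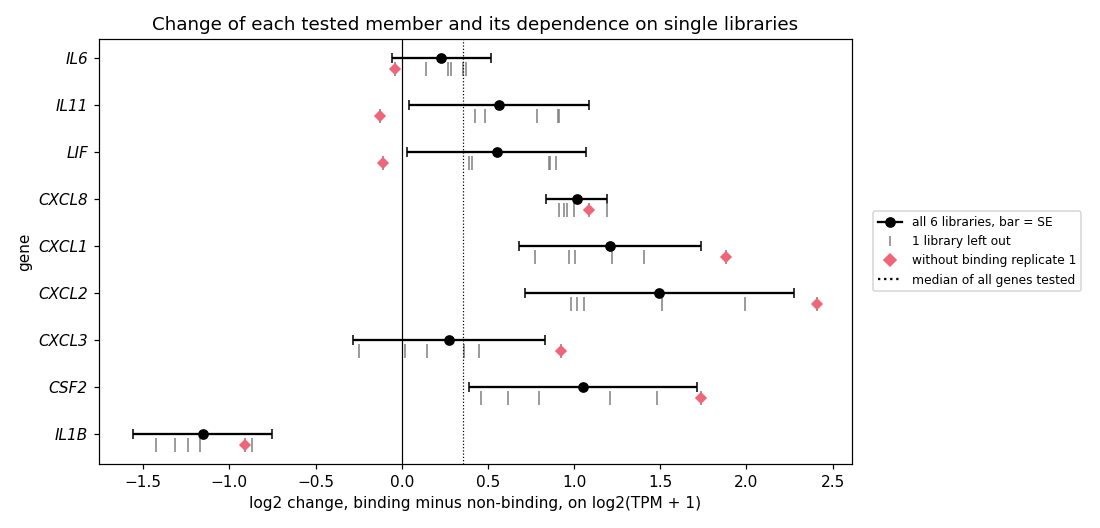
Log2 change of each tested member on log2(TPM + 1), binding minus non-binding (horizontal axis), with SE bars from limma on 6 libraries. Grey ticks are fits with 1 library left out and red diamonds the fit without binding replicate 1. Leaving out that library moved CXCL1, CXCL2 and CSF2 to 1.88, 2.41 and 1.74 and turned IL11 and LIF to -0.13 and -0.11.

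IL11 (chr19:55364389-55370463, hg38) was the most abundant member, with 355, 536 and 327 TPM in non-binding replicates 1, 2 and 3 and 1534, 361 and 364 TPM in binding replicates 1, 2 and 3. Binding replicate 1 was 4.23 times the mean of the other binding libraries, and those lay inside the non-binding range. The log2 change of IL11 was 0.57 (SE 0.52; limma, Benjamini-Hochberg adjusted p = 0.42), and -0.13 without binding replicate 1. LIF, the leukaemia inhibitory factor (chr22:30240447-30246851), stood at 57.6, 108 and 56.3 TPM in the non-binding libraries and 259, 63.9 and 67.0 TPM in the binding libraries. Its order over the 6 libraries was identical to that of IL11. The log2 change of LIF was 0.55 (SE 0.52; limma, Benjamini-Hochberg adjusted p = 0.432), and -0.11 without binding replicate 1. For neither gene does the mean of the binding group describe its libraries.

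IL6, the founding member of the family (chr7:22725884-22732002, hg38), was low. It was at 3.86, 3.76 and 2.99 TPM in the non-binding libraries and 6.72, 3.46 and 3.34 TPM in the binding libraries, in replicate order. Binding replicate 1 was the highest, and the other 5 libraries lay close together with the groups mixed. The log2 change of IL6 was 0.23 (SE 0.29; limma, Benjamini-Hochberg adjusted p = 0.552). It turned to -0.09 with the common median, to -0.04 with quantile normalization and to -0.04 without binding replicate 1.

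IL1A (chr2:112773915-112784590, hg38) and IL1B (chr2:112829751-112836903) were the lowest members. IL1A, which acts as an alarm signal from damaged cells, stood at 3.76, 0.407 and 0.831 TPM in non-binding and 3.27, 0.281 and 0.271 TPM in binding libraries, in replicate order. It reached 1 TPM only in replicate 1 of each group, so limma did not test it (exact permutation test on TPM, two-sided p = 0.5, where 3 against 3 can reach no less than 0.1). IL1B, the form released by inflammasomes, was at 2.07, 3.63 and 1.14 TPM in non-binding replicates, and at 0.577 and 0.743 TPM in binding replicates 2 and 3, with replicate 1 listed at 0. All non-binding libraries were above all binding libraries. The log2 change was -1.16 (SE 0.40; limma, unadjusted p = 0.0211, Benjamini-Hochberg adjusted p = 0.0644). IL1B entered the test only through the non-binding libraries, which alone reached 1 TPM, so this difference supports nothing. It passed with quantile normalization (log2 change -1.47, adjusted p = 0.046 by limma) and with TPM rescaled over nuclear protein-coding genes (log2 change -1.38, adjusted p = 0.0285). Keratinocyte markers were lower in binding libraries in the same direction. Non-binding replicate 2, which had the most IL1B, also had the highest summed level of the leukocyte marker list, 94.3 TPM. That sum held 18.1 TPM of TYROBP and 6.60 TPM of HBB, markers of myeloid and red blood cells. CD68, of the same list, was lowest there at 1.58 TPM, against 4.75 and 1.61 TPM in non-binding replicates 1 and 3. The part of such cells in the IL1B values was not tested.

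By mean over the 6 libraries, the order of levels was IL11, LIF, CXCL8, CSF2, CXCL1, CXCL2, CXCL3, IL6, IL1A and IL1B, from 579 to 1.36 TPM. Every library had more IL11 than any library had LIF. Each of the other neighbours in this order overlapped in their ranges over libraries. IL11 made up 62.9%, 74.2% and 64.9% of the summed level of the 10 members in non-binding replicates 1, 2 and 3. In binding replicates 1, 2 and 3 its share was 79.2%, 49.4% and 49.5%.

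Of the 9 tested members, 7 were at an extreme of their group in both binding replicate 1 and non-binding replicate 2, in opposite directions. IL11 and LIF were highest in binding replicate 1 among binding libraries and in non-binding replicate 2 among non-binding libraries. CXCL8, CXCL1, CXCL2, CXCL3 and CSF2 were lowest in exactly those libraries. IL6 and IL1B, and the untested IL1A, had neither pattern. Among all tested genes, 14.8% had the first pattern and 11.5% the second. Because the patterns were read from these members, their counts of 2 and 5 are a description and nothing is drawn from the difference. The summed level of CXCL1, CXCL2, CXCL3 and CSF2 relative to that of IL11 and LIF was 0.0222 in binding replicate 1 and 0.0405 in non-binding replicate 2. It was 0.46 and 0.437 in binding replicates 2 and 3, and 0.186 and 0.182 in non-binding replicates 1 and 3. The groups overlapped in this ratio, with its lowest and highest values both in binding cells.

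Pairs of members were compared over the 6 libraries as a description, since libraries of a group share a condition. IL11 and LIF had Pearson's r = 0.99 and Spearman's rho = 1.00, and r = 0.80 without the 2 libraries farthest from the median of IL11. CXCL1 and CXCL2 had r = 0.97 and rho = 0.94, and r = 1.00 without the 2 farthest libraries. IL11 and CXCL1 had r = -0.47 and rho = -0.43, which turned to r = 0.62 without the 2 farthest libraries, so their opposition rests on those. Among 12050 protein-coding genes tested, those most like CXCL8 over the 6 libraries were SHISAL1 (r = 0.997), TMEM256 (r = 0.992) and CTTN (r = 0.992). Those most like IL6 were CFDP1 (r = 0.993), OSGIN2 (r = 0.991) and ORC2 (r = 0.99). With 6 libraries such values are common: 231 genes had r over 0.95 with CXCL8 and 83 with IL6.

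**Figure D3:**
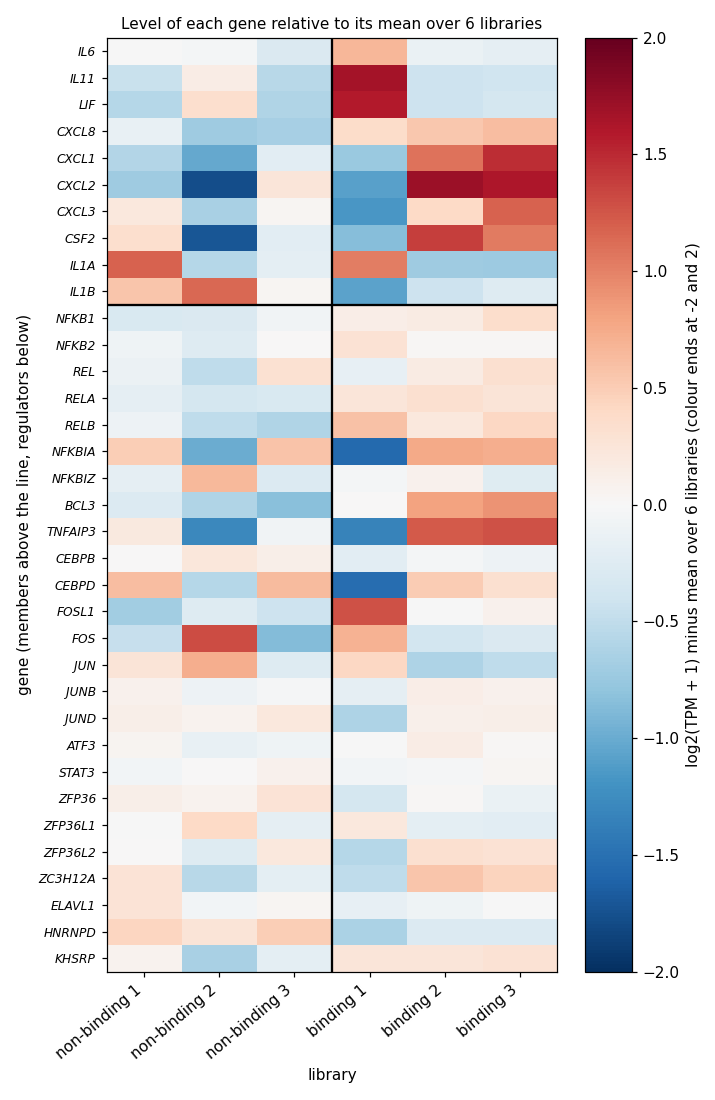
Level of each member (above the line) and of 25 transcription and mRNA decay factors (below it) in each library, as log2(TPM + 1) minus the gene's mean over 6 libraries (red above, blue below, colour ends at -2 and 2). Binding replicate 1 and non-binding replicate 2 share blue cells in CXCL1, CXCL2, CXCL3, CSF2, NFKBIA, TNFAIP3 and CEBPD.

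Factors that govern these genes were taken as a list of 25, all tested. By limma 3 were higher (RELA, RELB and BCL3), 1 was lower (HNRNPD) and 21 did not pass. The shares over all tested genes were 19.6% higher and 7.12% lower, so neither count is above the background. RELA, the transactivating NF-kB subunit, averaged 51.0 ± 1.45 against 34.5 ± 2.14 TPM, binding against non-binding (SD, n = 3 each; log2 change 0.55, limma with Benjamini-Hochberg adjusted p = 0.0249). RELB, of the alternative NF-kB pathway, averaged 27.3 ± 3.68 against 15.3 ± 3.17 TPM, and BCL3, a nuclear co-factor of NF-kB, 25.0 ± 7.82 against 10.5 ± 2.34 TPM. None of these 3 passed under common-median or quantile scaling, and RELA, RELB and BCL3 passed in 6, 8 and 7 of 14 alternatives. HNRNPD, also called AUF1, binds AU-rich elements and averaged 563 ± 79.0 against 965 ± 78.2 TPM (log2 change -0.78; limma, Benjamini-Hochberg adjusted p = 0.0153). HNRNPD narrowly missed the threshold when non-binding replicate 2 or 3 was left out (adjusted p = 0.0505 and 0.0594 by limma). CEBPB, the most abundant factor of the list, averaged 727 ± 44.8 against 859 ± 65.4 TPM and missed the threshold (Benjamini-Hochberg adjusted p = 0.152 by limma).

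Of this list 13 of 25 were the lowest of their group in both binding replicate 1 and non-binding replicate 2, against 11.5% of all tested genes. This count holds whatever the size of the difference, and it includes HNRNPD and near-level genes such as RELA (0.969 and 0.927 times the mean of the other libraries of the group). The libraries were singled out from the members' values, and NFKBIA, TNFAIP3 and CEBPD were picked after their values were seen. NFKBIA, the inhibitor that NF-kB itself induces, was at 553, 198 and 589 TPM in non-binding replicates 1, 2 and 3 and 133, 669 and 653 TPM in binding replicates 1, 2 and 3. TNFAIP3, or A20, another induced inhibitor, was at 14.7, 4.62 and 12.1 TPM and at 4.42, 31.1 and 32.1 TPM in the same order. CEBPD, a C/EBP factor, was at 192, 84.1 and 194 TPM and at 43.1, 179 and 157 TPM. All 3 genes were thus low in the libraries that were low in CXCL1, CXCL2, CXCL3 and CSF2. FOS, FOSL1, JUN and ZFP36L1, 4 of the 25, were highest in both of these libraries within their groups, against 14.8% of all tested genes.

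A list of 14 held receptors, co-receptors, decoys and the antagonist of the members, and OSMR, whose ligand oncostatin M is not a member. Of these 14, 10 were tested. By limma 4 were higher in binding cells, 0 were lower (also 0 at an unadjusted p under 0.05), and 6 did not pass. The background share of higher genes was 19.6%. CSF2RA, the ligand-binding chain for GM-CSF, was at 5.01, 6.32 and 5.76 TPM in non-binding and 20.6, 15.6 and 12.5 TPM in binding libraries, in replicate order. All binding libraries were higher, 2.85 times on average (log2 change 1.34, SE 0.22; limma, Benjamini-Hochberg adjusted p = 0.0136). Its partner chain CSF2RB reached 1 TPM in 1 library and was not tested.

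OSMR, a gp130 partner for oncostatin M, was the most abundant of the list at 21.9, 28.2 and 27.1 TPM in non-binding and 66.5, 41.9 and 43.8 TPM in binding libraries. Its log2 change was 0.93 (SE 0.21; limma, Benjamini-Hochberg adjusted p = 0.0223). IL6ST, the shared gp130 chain, averaged 20.9 ± 2.70 against 13.2 ± 1.42 TPM (SD, n = 3 each; log2 change 0.63, limma with Benjamini-Hochberg adjusted p = 0.0361). IL1RAP, the accessory chain of the interleukin 1 receptor, averaged 6.95 ± 0.942 against 3.84 ± 0.331 TPM (log2 change 0.71; limma, Benjamini-Hochberg adjusted p = 0.0404). With the common median CSF2RA and OSMR passed and with quantile normalization CSF2RA alone. Of 14 alternatives, IL6ST passed in 4, IL1RAP in 5, OSMR in 10 and CSF2RA in 13. Without non-binding replicate 3 none of the 4 did (CSF2RA log2 change 1.35, adjusted p = 0.0549 by limma).

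The other chains did not pass or were not tested. IL1R2, the decoy receptor of interleukin 1, was at 1.56, 1.69 and 1.44 TPM in non-binding and 0.646, 0.388 and 0.749 TPM in binding libraries, without overlap. Its log2 change was -0.69 (SE 0.30; limma, Benjamini-Hochberg adjusted p = 0.114), and it entered the test only through the non-binding libraries. LIFR, the second chain of the LIF receptor, averaged 5.79 ± 1.13 against 3.89 ± 0.867 TPM, and IL1R1, the signalling interleukin 1 receptor, 2.90 ± 0.405 against 3.31 ± 0.981 TPM. IL1RN, the interleukin 1 antagonist, averaged 6.20 ± 1.73 against 10.1 ± 3.96 TPM, and all its binding libraries lay below all its non-binding libraries. None of these 3 passed (limma, Benjamini-Hochberg adjusted p = 0.164, 0.729 and 0.16). CXCR1, a receptor of CXCL8, was listed at 0 in 5 libraries and at 0.355 TPM in non-binding replicate 3. CXCR2, which binds all the chemokines named here, was at 0.495, 1.07 and 0.273 TPM in non-binding libraries, at 0.184 TPM in binding replicate 2, and listed at 0 in binding replicates 1 and 3.

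**Figure D4:**
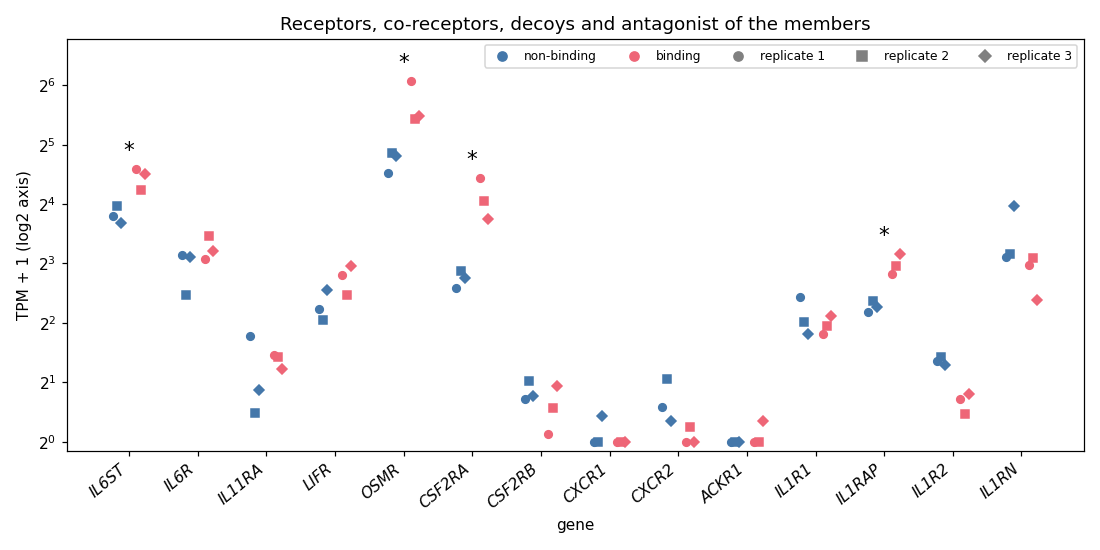
TPM + 1 on a log2 axis for 14 receptors, decoys and the antagonist of the members in non-binding (blue) and binding (red) libraries, with shapes for the replicate number. Stars mark the 4 genes past the limma threshold, IL6ST, OSMR, CSF2RA and IL1RAP. OSMR is a chain for oncostatin M, which is not a member. CXCR1, CXCR2 and ACKR1 lie at or near the bottom in both groups.

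Among 37 other cytokines and chemokines, 17 were tested, and by limma 4 were higher, 0 were lower (also 0 at an unadjusted p under 0.05) and 13 did not pass. The count of higher genes is near the 19.6% of all tested genes. MIF, a constitutive cytokine, averaged 464 ± 62.2 against 242 ± 19.1 TPM, binding against non-binding (SD, n = 3 each; log2 change 0.93, limma with Benjamini-Hochberg adjusted p = 0.0121). CSF1, the macrophage growth factor, averaged 22.4 ± 4.298 against 7.94 ± 0.754 TPM (log2 change 1.38; limma, Benjamini-Hochberg adjusted p = 0.0115). CXCL16, a membrane-bound chemokine, averaged 13.8 ± 0.910 against 7.20 ± 0.792 TPM (limma, Benjamini-Hochberg adjusted p = 0.0193). CLCF1, a gp130 cytokine, averaged 27.7 ± 12.2 against 12.9 ± 2.70 TPM and passed narrowly (limma, Benjamini-Hochberg adjusted p = 0.0489). CXCL16 and CLCF1 missed the threshold under common-median scaling and under quantile normalization. Of 14 alternatives, CSF1 and MIF each passed in 13, CXCL16 in 9 and CLCF1 in 4. Without binding replicate 1, which had the most CLCF1 (41.2 TPM), the log2 change of CLCF1 was 0.66 (limma, Benjamini-Hochberg adjusted p = 0.096). Leaving out non-binding replicate 3 removed all 4 calls, with log2 changes of 1.44 for CSF1, 0.94 for MIF, 0.89 for CXCL16 and 0.81 for CLCF1. In that fit only 58 genes were called higher in all, against 3047 with all libraries.

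Genes that process or release interleukin 1 formed a list of 16, of which 11 were tested, and by limma 5 were higher, 0 were lower (also 0 at an unadjusted p under 0.05) and 6 did not pass. Over all tested genes 19.6% were higher. CAPN2 and CAPNS1, subunits of the calpain protease that cleaves the IL1A precursor, averaged 105 ± 7.24 against 55.5 ± 4.61 TPM and 211 ± 41.6 against 119 ± 1.10 TPM. NINJ1, which ruptures the membrane of dying cells, averaged 48.3 ± 4.77 against 27.0 ± 3.45 TPM (limma, Benjamini-Hochberg adjusted p = 0.0118, 0.0164 and 0.0163 for the 3 genes). CASP8, an apoptotic caspase, averaged 14.3 ± 2.41 against 7.48 ± 1.43 TPM, and GSDMD, the pore-forming gasdermin, 9.36 ± 2.68 against 4.60 ± 0.485 TPM (limma, Benjamini-Hochberg adjusted p = 0.0274 and 0.0356). CASP8 and GSDMD missed the threshold under common-median scaling and under quantile scaling, and passed in 6 and 5 of 14 alternatives. Leaving out non-binding replicate 3 removed all 5 calls, with log2 changes from 0.73 for CASP8 to 0.95 for CAPN2, in the fit that called 58 genes higher in all. CASP1, the caspase that cleaves the IL1B precursor, was listed at 0 in non-binding replicate 2 and reached 1 TPM only in non-binding replicate 1, at 1.30 TPM.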

How the data were processed

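Per the labels' protocols, the 6 libraries were made from total RNA by random priming once ribosomal RNA had been removed. The deposited values are TPM for 58051 genes on genome build hg38, per the submitters' processing notes, and each column sums to 1000000. No aligner, quantification tool or annotation is named (not given in the sources used here). As TPM hold no depth, no count model or counting interval was used. The labels name no batch.

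The 15574 genes that reached 1 TPM in 3 or more of the 6 libraries were tested two-sided as log2(TPM + 1) with limma 3.58.1 (R 4.3.3). The fit had an intensity trend and no covariate, and p-values were Benjamini-Hochberg adjusted over all these genes at 0.05. Log2 changes refer to log2(TPM + 1), so those of low genes are understated. The fit was tested on simulated data, drawn separately for each gene and library. Deviations that many genes of a library share were not part of that simulation. Alternatives were another pseudocount (0.1), no filter, a filter of 5 TPM, common-median and quantile scaling, rescaling over nuclear protein-coding genes, no trend, a replicate block, and leaving out each library. Gene coordinates and transcripts came from GENCODE release 29 and promoters from RefSeq.

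The members and lists were chosen with earlier results of these data known. Named genes were all members, called genes of each list (at most 6, by p), the most abundant gene of each list, and IL6ST, IL1R1, IL1RAP, LIFR, CXCR1, CXCR2 and IL1RN. IL1R2 was named after its values were seen. Fibroblast and endothelial markers summed to 36.6 to 61.6 TPM in non-binding and 25.6 to 63.8 TPM in binding libraries. Adipocyte markers summed to 4.04 to 4.49 and 8.10 to 13.3 TPM, with PLIN4 higher in binding libraries (log2 change 1.45; limma, Benjamini-Hochberg adjusted p = 0.0158) and ADIPOQ and LEP at 0 in all.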

Additional observations from a re-analysis of the deposited data

How the results depend on the processing

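The number of members called higher, 1 with all libraries, was 0 to 3 when single libraries were left out: 0 without non-binding replicate 2 or 3 and 3 without binding replicate 1, which added CXCL1 and CXCL2. Without non-binding replicates 2 and 3 the genes called higher in all fell from 3047 to 280 and 58, so the loss is not particular to the members. The number called lower, 0 with all libraries, was 1 (IL1B) with quantile normalization and 1 with rescaling over nuclear protein-coding genes. Directions that turned were those of CXCL3 (log2 change -0.043 with the common median, and -0.25 to 0.93 with single libraries left out), IL6 (-0.088 under common-median and -0.040 under quantile scaling, and -0.040 to 0.38), IL11 (-0.13 to 0.91), LIF (-0.11 to 0.90) and IL1R1 (-0.27 to 0.049). The cause was not tested. IL6 and IL1B could not be tested with the filter of 5 TPM.

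Higher receptor genes numbered 4 with all libraries, 2 with no filter, 2 under common-median and 1 under quantile scaling, 2 with the replicate block and 0 to 3 with single libraries left out; 1 (IL1R2) was lower with the common median, rescaling or no trend. Higher genes of interleukin 1 processing numbered 5, and 3 with no filter, the common median or quantile normalization, and 0 to 5 with single libraries left out. Other cytokines numbered 4, and 2 with the common median or quantile normalization, and 0 to 4. Transcription and decay factors numbered 3 higher, 6 with the filter of 5 TPM, 0 with the common median or quantile normalization, and 0 to 3; lower ones numbered 1, 3 with the common median, and 0 to 1. The median log2 change of all genes, 0.36, moved to 0.04 under the common median and to 0.11 under quantile normalization.

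Samples with the same replicate number did not deviate together from their group means (correlations over genes of 0.03, -0.02 and 0.03 for numbers 1, 2 and 3). With 3 libraries in each group this cannot exclude a pairing by culture or sort, which the labels do not give. For non-binding replicate 2 and binding replicate 1 the same correlation over genes was 0.03. All pairs of unlike number ran from -0.07 to 0.06. With the replicate block CXCL8 still passed (limma, Benjamini-Hochberg adjusted p = 0.0234).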
